A study of Mus musculus with 6 samples.

Results

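Serine proteases and their protein inhibitors were described in bladders of mouse embryos at embryonic day 18.5. The members were 92 of the 18193 genes with a probe set on the array, taken by gene symbol: the transmembrane proteases (Tmprss genes and St14), the Prss genes, the kallikreins (Klk), the Kunitz-type inhibitors (Spint), the clade B serpins (Serpinb), and the Kazal-type inhibitors (Spink, without Spink4) together with Slpi. By family these were 13, 31, 20, 3, 18 and 7 genes. The study compared 3 arrays of Get1 -/- (null) with 3 arrays of Get1 +/- (heterozygous) bladder, named here null 1 to 3 and heterozygous 4 to 6. Get1, also known as Grhl3, encodes a transcription factor of the grainyhead-like family that acts in surface epithelia, and the control animals thus carried 1 mutant copy of it. Wild-type bladder was not analysed here, and the sources used here give neither the number of bladders per array nor the part of the gene that the allele removes. No source says that the samples of a group came from separate animals, so p-values measure the spread between these arrays.

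Serine proteases are made as inactive precursors and are switched on by a cut in their own chain. In surface epithelia, matriptase (St14) and prostasin (Prss8) act on each other at the cell membrane, and hepatocyte growth factor activator inhibitors 1 and 2 (Spint1 and Spint2) hold them in check. Kallikreins are secreted, and tissue kallikrein releases kinins from kininogens. Serpins trap a protease by a change of shape after it has cut them, while Kazal-type inhibitors such as Spink1 block trypsin-like enzymes by sitting in the active site.

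Of the 92 members, 29 passed a filter that left out the 30% of genes with the lowest mean (a mean log2 of 5.80, which is a signal of 39.7), and these were compared with limma over 12735 genes. Levels are log2(signal + 16), differences are null minus heterozygous, and a call is an adjusted p under 0.05 (Benjamini-Hochberg). The offset understates the change of dim genes. Only Prss32 was called, which made 1 member higher and 0 lower, where the background over all genes tested was 0.448% higher and 0.0628% lower. Its heterozygous mean (5.62) lay below the filter, so Prss32 passed only through the null group where it was high, and with no filter its adjusted p was 0.0591. At an unadjusted p under 0.05, 4 of the 29 members were higher and 7 lower, against 3.63% and 4.30% of all genes. Among them were Prss32, Spink1, Tmprss11a, Serpinb6e and Spink12. These passed the filter through their brighter group only, so they had to differ to be included. The tested members had a median difference of 0.05 and all tested genes one of −0.03. With no filter these medians were −0.06 and −0.04.

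Groups did not overlap for 4 tested members higher and 6 lower in null bladders, together 34.5% of the 29, where 6.07% and 7.36% of all genes were separated in these directions (13.4% together). Of these 10 members, 6 had passed the filter through their brighter group only (Prss32, Spink1, Serpinb9b, Tmprss11a, Serpinb6e and Spink12), and such genes had to differ to be included. Among the 22 tested members with the means of null and heterozygous arrays each above the filter, 4 were separated. The share of all genes separated under this condition was not computed. Without any filter 9 members were separated upward and 11 downward of 92, where 12.6% of all genes were separated.

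**Figure D1:**
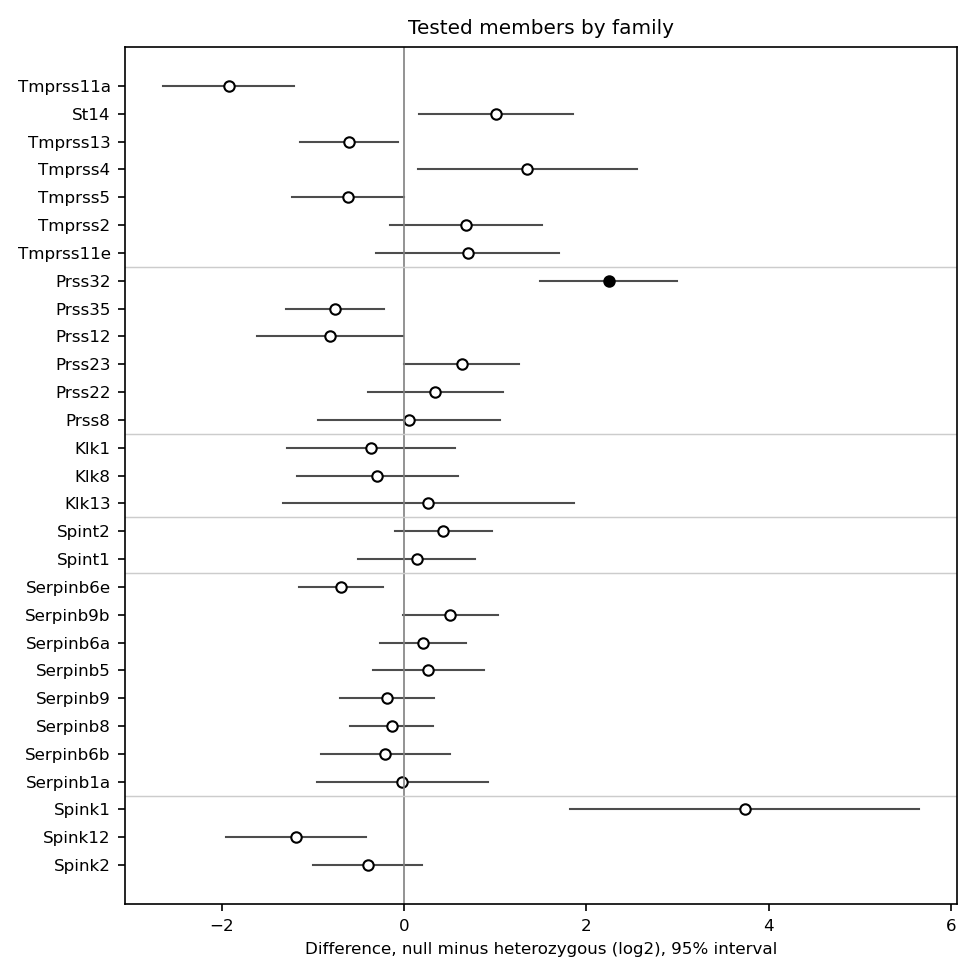
Differences (null minus heterozygous, log2) of the 29 tested members with 95% intervals from limma, in blocks by family (from the top: transmembrane, Prss, Klk, Spint, Serpinb, Spink). The filled point is the member past the test, Prss32 at 2.24, and the wide interval is that of Spink1 at 3.74.

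The sequences just upstream of the start of 4 members are given because the results turn on them: Prss32, the member called, Klk1, whose probe sets disagreed, Tmprss11a, whose signal was lower with the smallest unadjusted p of the members below 0, and Spint2, the inhibitor of the matriptase pathway with the larger difference. They are 250 bases 5′ to 3′ up to the base before the annotated start, from RefSeq on assembly GRCm38.p6, at Prss32 (chr17:23853522-23853771, plus strand), Klk1 (chr7:44225110-44225359, plus strand), Tmprss11a (chr5:86468991-86469240, minus strand) and Spint2 (chr7:29281978-29282227, minus strand). Capitals mark the match of the grainyhead-type core CNGGTT on either strand.
Prss32: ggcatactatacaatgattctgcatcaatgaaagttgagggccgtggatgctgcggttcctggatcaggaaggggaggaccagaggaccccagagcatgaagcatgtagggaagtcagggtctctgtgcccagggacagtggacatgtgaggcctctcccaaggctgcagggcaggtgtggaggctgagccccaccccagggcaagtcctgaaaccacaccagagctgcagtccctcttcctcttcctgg
Klk1: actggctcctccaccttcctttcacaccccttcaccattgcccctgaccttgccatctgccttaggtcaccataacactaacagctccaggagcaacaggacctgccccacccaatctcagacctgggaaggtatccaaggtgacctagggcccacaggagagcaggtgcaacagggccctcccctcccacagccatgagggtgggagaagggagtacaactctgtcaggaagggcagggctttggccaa
Tmprss11a: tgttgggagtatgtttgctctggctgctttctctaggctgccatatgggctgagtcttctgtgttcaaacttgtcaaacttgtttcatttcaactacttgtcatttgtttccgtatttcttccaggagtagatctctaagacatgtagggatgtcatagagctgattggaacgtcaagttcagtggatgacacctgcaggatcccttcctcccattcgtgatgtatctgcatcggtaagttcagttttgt
Spint2: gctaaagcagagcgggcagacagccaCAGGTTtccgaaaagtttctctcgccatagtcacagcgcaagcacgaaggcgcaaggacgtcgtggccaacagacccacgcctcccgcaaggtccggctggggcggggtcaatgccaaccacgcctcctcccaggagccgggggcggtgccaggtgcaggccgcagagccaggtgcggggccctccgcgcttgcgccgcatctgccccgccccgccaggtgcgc

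Spint2 held 1 match, which began 224 bases before the start, and the other 3 windows held 0. The core stood in 33.9% of all 32851 promoter windows of this length and in 32.2% of the 90 windows of members, shares that lie close together. Among tested members, 8 of the 20 genes with a window had it (Klk8, Prss23, Serpinb8, Serpinb9, Spint1, Spint2, Tmprss2 and Tmprss5). Counted by gene in the same way, the core stood in 36.9% of all 27025 genes with a window. The full palindrome AACCGGTT, which holds the core on both strands, stood in 0.116% of all windows and in 0 of the 90.

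Prss32, a tryptase-type serine protease, rose in null bladders. It read 171, 195.0 and 305 on null 1 to 3, and 19.3, 32.2 and 54.0 on heterozygous 4 to 6. All 3 null arrays were high, the groups did not overlap, and the lowest null signal was well above the highest heterozygous one. The log2 level was 5.62 ± 0.49 with heterozygous and 7.86 ± 0.41 with null genotype (SD over 3 arrays each), a difference of 2.24 (SE 0.33, 4.74-fold, limma adjusted p = 0.0307, exact two-sided permutation p = 0.1, the lowest possible value for groups of 3). A second probe set of Prss32 read 88.4, 49.5 and 74.9 on the null arrays against 5.49, 1.27 and 3.02 on the heterozygous ones, a difference of 2.15. The call was lost without null 1 (adjusted p = 0.0584), null 2 (0.119), null 3 (0.123), heterozygous 4 (0.103) or heterozygous 5 (0.139), while the difference stayed between 2.00 and 2.50. It was also lost with an offset of 1 (2.71, adjusted p = 0.0693).

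The protease genes next to Prss32 in the genome did not share its levels. Prss41 on one side read 2.32, 51.5 and 48.3 for null and 3.55, 62.6 and 46.8 for heterozygous bladders. Prss21 on the other side lay between 1.13 and 22.7 on all 6. Both were below the filter, with differences of −0.09 and −0.08.

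On the same arrays the markers of intestinal epithelium were high. A list of 10 such genes had a summed signal of 12691 to 23886 for null and 168 to 281 for heterozygous bladders. Of its 9 tested genes 8 were called higher. The ninth, Fabp2, a fatty acid binding protein of enterocytes, had overlapping groups (2.53, adjusted p = 0.576, limma), and the tenth gene listed, the transcription factor Cdx1, was below the filter and not tested. Mast cell markers, relevant because tryptases are made by mast cells, summed to 758 to 1932 for null and 1214 to 3939 for heterozygous bladders, with 4 of 9 below the filter (Tpsab1, Mcpt4, Fcer1a and Ms4a2). Markers of the exocrine pancreas, which makes trypsins and Spink1, summed to 266 to 409 and 368 to 425, with 4 of the 8 that had a probe set below the filter. Neutrophil markers summed to 3734 to 6706 and 1125 to 1684, most of it from S100a8 and S100a9, while the neutrophil genes Elane, Camp, Ltf and Cxcr2 were below the filter. The other tested neutrophil genes, Ngp and Mpo, overlapped between the groups (differences of 0.24 and 0.14). Epidermal markers overlapped between the groups (3329 to 4387 and 3679 to 4623). The part of these cells in the differences of Prss32, Klk1 and Spink1 was not tested, and in bulk tissue fewer cells of a type and less RNA per cell cannot be told apart.

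**Figure D2:**
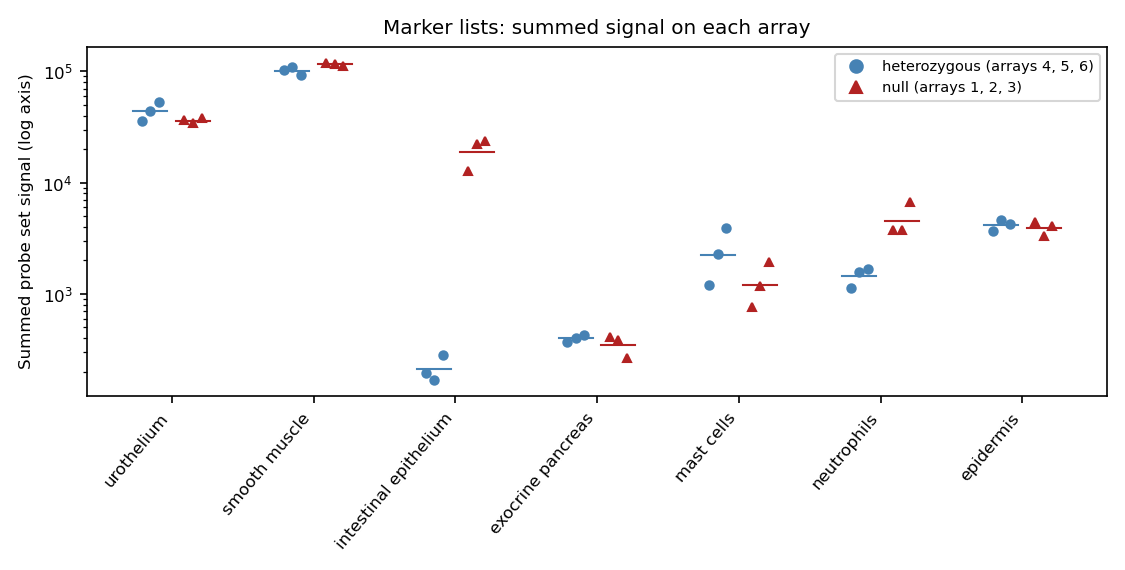
Summed probe set signal (log axis) of each marker list on each array, with bars at the group means of log2(signal + 16). Only the lists for intestinal epithelium, smooth muscle and neutrophils are separated, and for the intestinal list the null arrays lie at 12691 or above and the heterozygous arrays at 281 or below.

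All 10 urothelial and all 6 smooth muscle genes of the marker lists passed the filter, as did 9 of 10 intestinal and 7 of 8 epidermal genes. The smooth muscle genes summed to 112388 to 119277 for null and 93107 to 109528 for heterozygous bladders, higher in null without overlap. Their median difference was 0.21, and 0 of the 6 were called. Of the urothelial genes Upk2, a uroplakin of the urothelial surface, fell in null bladders (−3.03, adjusted p = 0.00223, limma). The uroplakin Upk1a had a difference of −2.36 (adjusted p = 0.199, limma), and the median of the 10 genes was −0.49. Of the 10 differences, 6 were below 0 and 4 above. The summed urothelial signals overlapped, at 34155 to 38064 for null and 36149 to 53359 for heterozygous bladders. The part of these urothelial and smooth muscle values in the members' differences was not tested. The Grhl3 probe set itself read 76.6, 21.5 and 120 for null and 143, 133 and 126 for heterozygous bladders, lower in null without overlap, but not past the test (adjusted p = 0.655), and where it lies relative to the deletion is not known here.

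Klk1, tissue kallikrein, gave opposite answers by probe set. The one chosen by its mean read 162, 226 and 127 for null and 184, 139 and 409 for heterozygous bladders, with a difference of −0.37 (SE 0.40, adjusted p = 0.888, limma) that turned to 0.06 without heterozygous 6, the one array that stood high. The other 3 probe sets were all higher in null bladders, with groups that did not overlap. One of them read 188, 385 and 209 for null and 36.1, 27.8 and 36.9 for heterozygous bladders, a difference of 2.41 (SE 0.32). Another differed by 2.41 (SE 0.33), from 5.82 ± 0.18 in heterozygous to 8.23 ± 0.57 in null bladders (SD, n = 3 each). The last one differed by 1.65 (SE 0.42). When every probe set was tested on its own, an alternative added after these values had been seen, the first 2 of these passed (limma adjusted p = 0.0377 and 0.0494 over 31526 probe sets) and the last did not (adjusted p = 0.454). In that fit 0.184% of probe sets were called higher and 0.0222% lower, the groups of 5.63% were separated upward and of 6.41% downward, and Klk1 and Prss32 were the members called. For Prss32 it was the dimmer probe set that passed there (adjusted p = 0.0296, limma), while the brighter one had an adjusted p of 0.0827.

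Which of the 4 reads Klk1 itself was not settled. Names ending in _x_at mark probes that can also match other transcripts. The chosen probe set has such a name, as have 2 of the others, while the one with a difference of 2.41 (SE 0.32) has none. Without probe sets of this kind and those ending in _s_at or _a_at, Klk1 was called higher (2.41, limma adjusted p = 0.0109). The heterozygous mean of the probe set behind this call (5.63) lay below the main filter and its null mean (8.04) above it. By that filter it would pass only through the null group, where it was high, as for Prss32. The Klk1b genes next to Klk1 are close copies of it. Those Klk1b genes with a probe set of their own lay below the filter, Klk1b5 for example at 0.54 to 29.6 for null and 0.58 to 22.7 for heterozygous bladders. Null 2 was the highest null array in each of the 4.

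**Figure D3:**
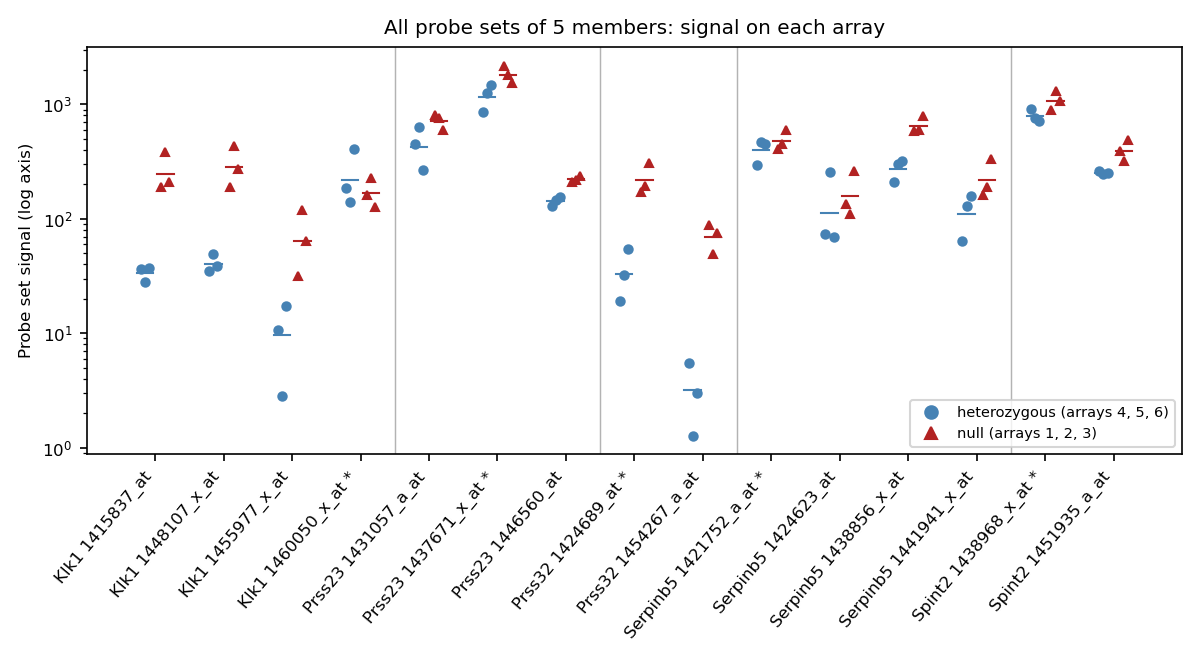
Signal (log axis) of every probe set of Klk1, Prss23, Prss32, Serpinb5 and Spint2 on each array, with bars at the group means of log2(signal + 16) and a star on the probe set used for the gene. For Klk1 the 3 unstarred probe sets are separated and the starred one is not.

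Among the transmembrane proteases 0 of 7 tested members passed limma's test over all genes. At an unadjusted p under 0.05, 2 were higher and 3 lower, against 3.63% and 4.30% of all genes. Tmprss11a, among the lower ones, passed the filter through the heterozygous group only. The direction was mixed. Tmprss11a, of a branch of these enzymes known from squamous and airway epithelium, had signals of 9.50, 31.9 and 34.9 for null and 164, 128 and 115 for heterozygous bladders. No null array came near the heterozygous ones. The level was 5.31 ± 0.55 against 7.23 ± 0.24 (SD, n = 3 each), a difference of −1.92 (SE 0.31, 95% interval −2.65 to −1.20) with an adjusted p of 0.0545 (limma), just outside the threshold. It passed with quantile normalization, with arrays centred on their median, with array weights and with probe sets averaged (adjusted p = 0.0415, 0.0267, 0.0305 and 0.0320). Its other alternatives gave adjusted p up to 0.190, and the size ran from −1.16 to −2.55 with offsets of 64 and 1. The gene has 1 probe set.

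The neighbours of Tmprss11a in the same cluster of genes had other values. Tmprss11e, 4 places away, read 33.4, 55.0 and 119 for null and 25.2, 61.0 and 19.1 for heterozygous bladders, a difference of 0.70 (adjusted p = 0.767, limma). Tmprss11d, Tmprss11f and Tmprss11g were below the filter on the mean of the arrays, with differences of −0.04, 0.19 and −0.31.

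St14, matriptase, read 136, 216 and 236 for null and 46.9, 98.1 and 137 for heterozygous bladders. The groups overlapped narrowly, since null 1 and heterozygous 6 were nearly equal. The difference was 1.01 (SE 0.37, adjusted p = 0.543, limma). Tmprss4, a membrane protease of epithelia, lay tightly at 207, 265 and 257 for null and was scattered on the heterozygous ones, at 29.4, 83.6 and 211. Its difference of 1.35 (SE 0.52, adjusted p = 0.565, limma) was 0.78 when heterozygous 4, the lowest array, was left out.

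Tmprss13, a mosaic serine protease of the cell surface, had 1118, 1433 and 1607 for null and 2098, 1826 and 2408 for heterozygous bladders. It was lower in null without overlap, by a small amount (−0.61, SE 0.23, adjusted p = 0.565, limma). Tmprss5, also called spinesin, read 47.1, 25.9 and 59.7 against 66.2, 76.1 and 80.3, again without overlap (−0.62, SE 0.27, adjusted p = 0.624, limma). Tmprss2, an androgen-regulated protease that can cut viral surface proteins, read 1956, 3215 and 3129 against 1034, 1911 and 2414. Its groups overlapped (0.68, adjusted p = 0.726, limma), and its 4 probe sets all had differences above 0, from 0.15 to 0.70.

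**Figure D4:**
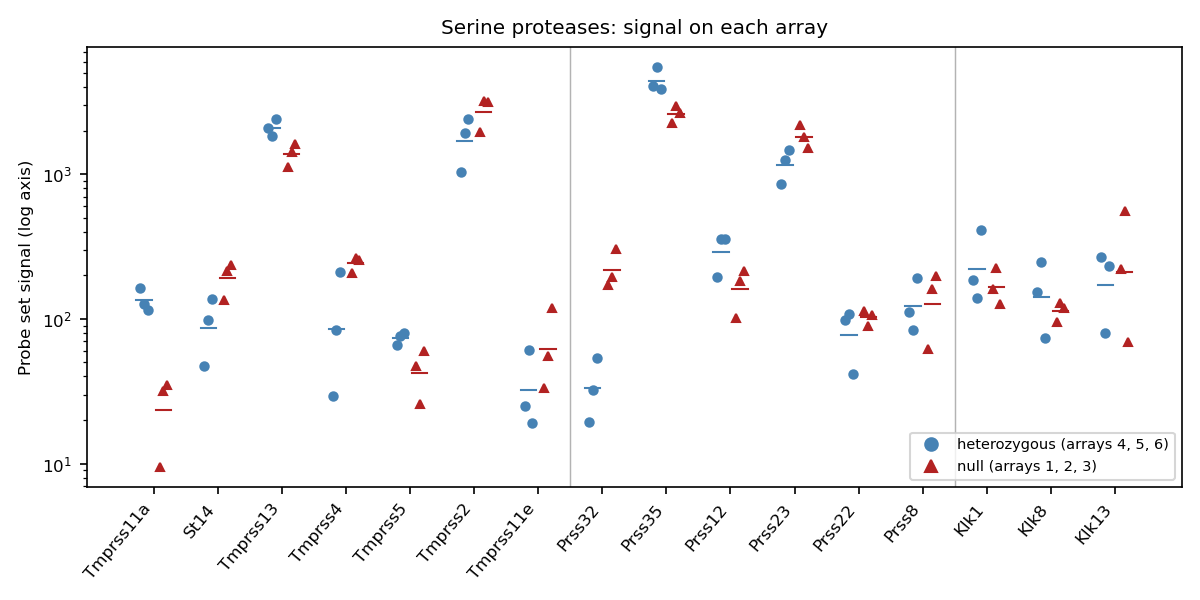
Signal on each array (log axis) of the 16 tested proteases, with bars at the group means of log2(signal + 16), in the order transmembrane, Prss, Klk. Tmprss11a, Tmprss13, Tmprss5 and Prss35 are lower without overlap in null bladders, and Prss32 and Prss23 higher.

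In the Prss family 6 of 31 genes were tested. Prss35, a secreted homologue whose catalytic serine is replaced, read 2267, 2936 and 2654 for null and 4062, 5501 and 3866 for heterozygous bladders. It was lower in null on every array, by 0.76 on the log2 scale (SE 0.23, adjusted p = 0.421, limma). Prss12, neurotrypsin, which cuts agrin at synapses, read 101, 184 and 216 against 195, 354 and 358. Its groups overlapped, as null 3 lay above heterozygous 4 (−0.81, SE 0.35, adjusted p = 0.624, limma).

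Prss23, a secreted protease, read 2182, 1792 and 1523 for null and 853, 1255 and 1476 for heterozygous bladders. The gap between null 3 and heterozygous 6 was narrow (0.63, SE 0.27, adjusted p = 0.627, limma). Its other 2 probe sets gave 0.74 and 0.58, and 2 of the 3 were separated. Prss22 (0.34, adjusted p = 0.868, limma), a tryptase of airway epithelium, overlapped between the groups and changed sign without heterozygous 6 (−0.0061). Prss8, prostasin, the partner of matriptase and an activator of the epithelial sodium channel, read 61.6, 160 and 198 for null and 112, 84.4 and 191 for heterozygous bladders. No difference could be read for it (0.05, 95% interval −0.95 to 1.05), and the sign changed without null 2, null 3, heterozygous 4 or heterozygous 5.

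Of the kallikreins 3 of 20 genes were tested. Beside Klk1, Klk8 (neuropsin) had a difference of −0.29 and Klk13 one of 0.27 (adjusted p = 0.916 and 0.967, limma). Both overlapped. Klk8 turned to 0.07 without heterozygous 5, and Klk13 turned to −0.40 without null 2 and −0.23 without heterozygous 5. The kallikreins of the skin surface, Klk5 and Klk10, were below the filter, at signals of 1.03 to 30.1 and 6.08 to 67.6.

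The Kunitz-type inhibitors of matriptase were present on all arrays. Spint1 read 1145, 1274 and 1487 for null and 892, 1095 and 1666 for heterozygous bladders, so heterozygous 6 was the highest of all. Its difference was 0.14 (95% interval −0.51 to 0.78, adjusted p = 0.954, limma), and it was −0.06 without heterozygous 4. Spint2 read 897, 1304 and 1062 for null and 914, 766 and 714 for heterozygous bladders, where null 1 fell within the heterozygous range (0.43, SE 0.23, adjusted p = 0.731, limma). A second probe set of Spint2 read 392, 317 and 491 against 263, 246 and 251, without overlap, and differed by 0.61. St14 and both inhibitors thus had differences above 0 and Prss8 one near 0, with none of the 4 past the test.

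Among the clade B serpins, which act mostly inside cells, 8 of 18 genes were tested and 0 passed limma's test. Against 3.63% of all genes higher and 4.30% lower at an unadjusted p under 0.05, 0 serpins were higher and 1 lower. That gene, Serpinb6e, read 28.2, 34.0 and 36.8 for null and 64.6, 61.4 and 63.2 for heterozygous bladders. The arrays of each group lay close together (−0.69, SE 0.20, adjusted p = 0.372, limma), but the null signals were below the filter and the probe set name ends in _x_at. Serpinb9b read 54.6, 43.3 and 58.3 against 37.7, 35.6 and 23.1, higher without overlap (0.51, adjusted p = 0.633, limma).

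Serpinb6a, an inhibitor of cathepsin G and related enzymes, read 2131, 2293 and 1889 against 1664, 1956 and 1839 (0.21, 95% interval −0.27 to 0.68). Serpinb9, an inhibitor of granzyme B, read 284, 324 and 221 against 334, 305 and 302 (−0.19, 95% interval −0.70 to 0.32). A second probe set of Serpinb9 read 234, 191 and 214 against 262, 251 and 305, lower without overlap. It differed by −0.33 (limma adjusted p = 0.852 over all probe sets). Neither Serpinb6a nor Serpinb9 passed the test, and the intervals leave room for changes of less than 1 on the log2 scale. Serpinb1a, an inhibitor of neutrophil elastase, had a difference of −0.02 with one probe set and 0.38 with the other, and its sign was positive with arrays centred or weighted. The remaining tested serpins, Serpinb8 and Serpinb6b, overlapped between the groups and were not past the test.

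Serpinb5, maspin, an epithelial serpin that inhibits no known serine protease, depended on the probe set. The chosen one read 408, 450 and 599 for null and 296, 469 and 447 for heterozygous bladders, with overlap (0.27, adjusted p = 0.877, limma). Its difference was 0.11 without null 3. Another one read 590.4, 596 and 785 against 211, 303 and 321, well separated, and differed by 1.20 (SE 0.27, limma adjusted p = 0.381 over all probe sets). The remaining 2 differed by 0.45 and 0.89, so all 4 differences were above 0 and 2 were separated. Without heterozygous 4, 5 or 6 the one that differed by 1.20 became the brightest and thus stood for the gene (1.03, 1.27 and 1.31), while the chosen one gave 0.06, 0.38 and 0.35 there.

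Spink1, the trypsin inhibitor of pancreatic juice, had the largest difference of the tested members. Null 1 to 3 read 259.6, 1113 and 984, and heterozygous 4 to 6 read 21.6, 4.14 and 158. The groups did not overlap, but the gap between null 1 and heterozygous 6 was small beside the spread within each group. The level was 9.40 ± 1.13 against 5.67 ± 1.60 (SD, n = 3 each), a difference of 3.74 (SE 0.83, adjusted p = 0.207, limma). It passed with array weights (4.53, adjusted p = 0.0208). Without heterozygous 6 the difference was 4.62 (adjusted p = 0.0618), and without heterozygous 5, whose signal is near the lowest level, it was 3.07 (adjusted p = 0.448). Null 1 was also the lowest null array in the intestinal marker sum. That sum was 12691, 22180 and 23886 on null 1 to 3. The median signal of null 1 over all probe sets (58.0) was the lowest of all arrays as well, beside 68.1 and 70.3 on null 2 and 3. The part of either in the spread of Spink1 was not tested.

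Spink12 went the other way, at 35.1, 45.0 and 13.6 for null and 66.8, 121 and 80.6 for heterozygous bladders, without overlap (−1.19, SE 0.33, adjusted p = 0.353, limma). Spink2, an inhibitor known from sperm, overlapped (−0.40, adjusted p = 0.780, limma). Spink5, the inhibitor of skin kallikreins, and Slpi, a secreted inhibitor of leukocyte elastase, were below the filter. Slpi read 5.68, 62.3 and 46.5 for null and 7.33, 3.49 and 42.7 for heterozygous bladders, and Spink5 was at 24.8 or less on all 6.

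**Figure D5:**
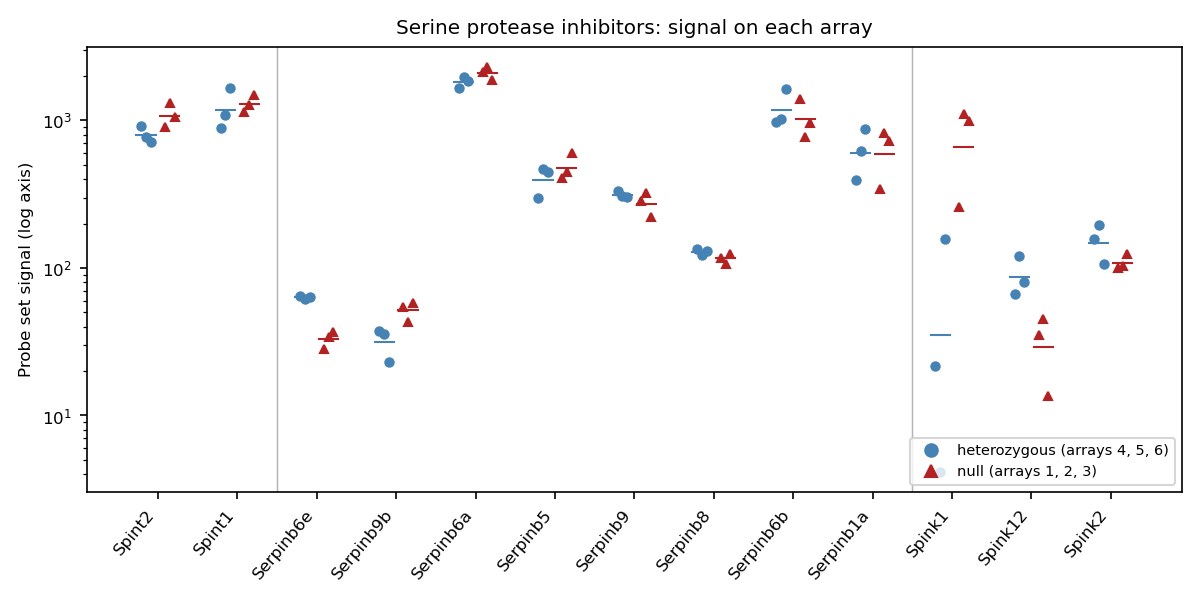
Signal on each array (log axis) of the 13 tested inhibitors, with bars at the group means of log2(signal + 16), in the order Spint, Serpinb, Spink. Spink1 is the member with the widest spread within both groups, and Serpinb6e the one with the tightest heterozygous arrays.

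The 63 members below the filter had signals between 0.53 and 79.0, with a median of 11.1. Groups did not overlap for 5 of them upward and 5 downward (15.9%), where 4.86% and 5.90% of all 5458 genes below the filter were separated in these directions (10.8% together). Serpinb2, an inhibitor of plasminogen activators, read 29.2, 23.0 and 13.4 on the null against 6.47, 3.46 and 2.66 for heterozygous bladders, and Prss3, a trypsin, 23.0, 18.4 and 13.6 against 1.62, 1.15 and 2.17. Serpinb2 belonged to the fixed set of well-known members, while Prss3 was chosen for mention after its values were seen. All of the Serpinb2 and Prss3 signals lie under the filter's 39.7, so no fold is given. The 5 separated downward were Tmprss15, Prss44, Klk1b7-ps, Serpinb12 and Serpinb3a.

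Genes outside the members that act with these proteases were read from 3 lists. Limma called 0 genes in each list, under the main settings and all alternatives run on them. Over all genes tested, 3.63% were higher and 4.30% lower at an unadjusted p under 0.05. Of 8 tested other serine proteases and their cofactors, 1 was higher and 0 lower at that level. This was F3, tissue factor, which is a receptor for a clotting protease and no protease itself (0.89, adjusted p = 0.433), and Masp1 and Htra1 followed by p at −1.24 and −0.52. Of 10 tested substrates and receptors, 2 were higher at that level and 0 lower: Epcam, an adhesion molecule cut by matriptase (1.06, adjusted p = 0.444), and Met, the receptor of hepatocyte growth factor (0.46, adjusted p = 0.616).

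Epcam read 960, 926 and 1587 for null and 444, 816 and 409 for heterozygous bladders, without overlap. F2r, a thrombin receptor, was next by p at −0.38. Of 16 tested inhibitors outside the members, 0 were higher and 1 lower at an unadjusted p under 0.05. That was Reck, a membrane inhibitor of metalloproteases, at 980, 943 and 702 against 1374, 1294 and 1543 (−0.68, adjusted p = 0.470). Wfdc3 and A2m followed at 1.03 and −1.65, with overlapping groups. The medians of the 3 lists were −0.21, −0.03 and −0.03, close to the −0.03 of all genes except for the first.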

How the data were processed

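RNA of bladder was measured on 6 Affymetrix-type arrays. Per the labels' protocols the RNA was labelled by a random-primed whole-transcript method, while the probe set names are of the kind used on 3′ expression arrays. What this did to the signals was not tested. The authors deposited linear intensity values per probe set. The submitters' processing notes name Affymetrix Expression Console 1.1 and PLIER 2.0, and the sources used here give no background or normalization step. Upper quartiles were similar (334 to 370.1), while medians ran from 58.0 (null 1) to 72.1 (heterozygous 5). Null 1 was the lowest array on each measure. The number of arrays limits the precision.

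Of 45101 probe sets 64 were controls. The platform annotation named 1 gene for 34945 probe sets and several for 932. Of these 4 included a member, and no gene was given a value from them. The 92 members had 122 probe sets, and all matched the RefSeq gene table by identifier with 0 changed symbols. Each gene took the probe set with the highest mean log2(value + 16). The 30% dimmest genes were left out, and the genotypes were tested in R 4.3.3 by limma 3.58.1 (eBayes, two-sided). Named genes were members past the threshold, the 5 smallest p of each family, a fixed set of well-known members, and in each of the 3 related lists the 3 smallest p. Members and lists were chosen with earlier results of these data known. On simulated data the fit called 74.1% of the tested genes changed by 2 on the log2 scale and 11.6% of those changed by 1.

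Alternatives were other offsets, filters, probe set rules, normalizations, limma settings and each array left out.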

Additional observations from a re-analysis of the deposited data

How the results depend on the processing

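The count of members called higher was 1, and it was 0 with an offset of 1, with no filter or with a 50% filter (which leaves Prss32 out). It was 2 without probe sets ending in _s_at, _x_at or _a_at and with every probe set tested on its own (Klk1 and Prss32 in both), and 2 with array weights (Prss32 and Spink1). With 1 array left out it ranged from 0 to 1. The count called lower was 0 and became 1, Tmprss11a, with probe sets averaged, quantile normalization, centring or array weights, and it was 0 in each fit without 1 array. Leaving out null 1, the only array with another leading number in its title, gave 0 members called in either direction. The same held without null 2, null 3, heterozygous 4 or heterozygous 5.

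Family medians rest on few genes and moved easily. With no filter they were −0.31 (transmembrane), −0.12 (Prss), 0.21 (Klk), −0.16 (Serpinb) and 0.12 (Spink), against 0.68, 0.20, −0.29, −0.08 and −0.40. With a 50% filter the transmembrane median was 0.034 and that of Prss −0.76. With probe sets averaged the medians were −0.16 (Prss), 0.27 (Klk), 0.027 (Serpinb) and −0.14 (Spink), and without the 3 suffixes 0.048, 0.27, 0.12 and −0.14. Array weights gave 0.22 for all members and 0.042 for Serpinb. With 1 array left out the medians ranged from −0.17 to 0.22 (all members), −0.076 to 0.91 (transmembrane), −0.10 to 0.28 (Prss), −0.40 to 0.057 (Klk), 0.22 to 0.39 (Spint), −0.17 to 0.12 (Serpinb) and −0.62 to −0.22 (Spink).

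Klk1 turned to 1.53 with probe sets averaged and 2.41 without the 3 suffixes. Serpinb1a turned to 0.18 and 0.38 under these, 0.0052 with centring and 0.35 with array weights. Leaving out 1 array gave −0.0061 to 0.55 for Prss22, −0.67 to 0.057 for Klk1, −0.70 to 0.071 for Klk8, −0.40 to 0.97 for Klk13, −0.061 to 0.38 for Spint1, −0.24 to 0.49 for Prss8 and −0.31 to 0.36 for Serpinb1a. The cause of these changes was not tested, beyond the probe sets or arrays that each setting removes. No paired analysis was run because the labels name no pairs of null and heterozygous samples.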

Other observations

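Probe sets that the annotation assigns to several genes were left out of the comparison, and 4 of them include a member. The probe set shared by Klk1b9 and Klk1b22, kallikreins close to Klk1, read 34.9, 70.0 and 71.4 on null 1 to 3 and 0.90, 38.3 and 5.20 on heterozygous 4 to 6, with overlap between null 1 and heterozygous 5 (difference 1.43). The probe set shared by Klk1b26 and Egfbp2 was below the filter. The probe set shared by Serpinb9e, Serpinb9f, Serpinb9g and Serpinb9h read 1.55, 21.7 and 15.3 for null and 40.0, 28.1 and 45.0 for heterozygous bladders, lower without overlap (difference −0.95). The probe set that covers the trypsins Prss1 and Prss3 lay between 1.02 and 18.4 on all 6 arrays and did not show the separation of the probe set named for Prss3 alone.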
